A study of Mus musculus with 12 samples.

Results

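The mitochondrial chromosome contributed 37 of the 43322 genes in the count table of cultured mouse cortical glia. The genes were chosen by position alone, as all rows on that chromosome. They comprised 13 coding genes, 2 ribosomal RNAs (mt-Rnr1 and mt-Rnr2) and 22 transfer RNAs. In all, 23 of the 37 passed the filter on low counts and were tested, namely all 13 coding genes, both ribosomal RNAs and 8 transfer RNAs. The other 14 transfer RNAs held between 0 and 15 counts in any library.

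Poly-A RNA was sequenced from glial cells of the frontal cortex of wild-type CD1 mice, taken at postnatal days 3 to 5 and labelled as cultured astrocytes. Cells were grown in serum with EGF, split at day 7 in vitro and used 3 to 7 days later. The 12 libraries form 3 groups of 4, from cells kept for 60 min with vehicle (control), with thapsigargin at 3 µM, or in medium without calcium and with EGTA. Thapsigargin blocks the SERCA pump that fills the calcium store of the endoplasmic reticulum, and EGTA is a calcium chelator. The study's text calls the 4 samples of a group biological replicates, and the labels describe preparation from 1 mouse at a time without saying which library came from which mouse.

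In animal cells, both strands of the mitochondrial genome are transcribed as long precursors that hold many genes. Transfer RNAs lie between most coding genes, and cutting at their ends releases the messenger RNAs, which then receive short poly-A tails. The coding genes specify subunits of respiratory complexes I, III and IV and of the ATP synthase, and the remaining subunits are encoded in the nucleus. Because the libraries were made with oligo-dT beads, coding transcripts were compared first. Transfer RNAs are not normally polyadenylated, so counts in their genes may come from uncut or neighbouring transcripts, and from which molecule was not tested.

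The 3′ ends of 4 coding genes are shown because the tail is both part of these messages and the handle by which they were captured. Sequences are those of the GENCODE mouse release M21 transcripts (GRCm38), whose start, end and strand were the same as the table's GRCm39 positions for 37 of 37 genes. All 4 lie on the plus strand, and capitals mark the bases after the last sense codon.
COX1, chrM:5328-6872: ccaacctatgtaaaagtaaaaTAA
COX3, chrM:8607-9390: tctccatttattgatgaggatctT
ND4, chrM:10167-11544: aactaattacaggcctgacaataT
CYTB, chrM:14145-15288: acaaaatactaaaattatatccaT
COX3, ND4 and CYTB ended in a lone T, which becomes a stop codon once a tail of A follows it. The other 10 coding genes ended in a whole stop codon, TAA in 8 and TAG in 2.

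Several genes overlap, so that a read can belong to both members of a pair. ATP8 and ATP6, which specify small membrane subunits of the ATP synthase, share 43 bases, shown as capitals in the whole ATP8 gene (plus strand).
ATP8, chrM:7766-7969: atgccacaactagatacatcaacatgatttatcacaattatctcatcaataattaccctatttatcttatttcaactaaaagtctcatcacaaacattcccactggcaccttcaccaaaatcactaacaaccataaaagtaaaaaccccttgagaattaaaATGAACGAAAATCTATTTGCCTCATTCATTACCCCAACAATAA
ND4L and ND4, both of complex I, share 7 bases, shown as capitals at the end of ND4L (plus strand).
ND4L, last 60 bases, chrM:10114-10173: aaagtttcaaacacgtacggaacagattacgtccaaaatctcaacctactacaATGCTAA
ND5 and ND6, also of complex I, share 14 bases on opposite strands, shown as capitals at the end of ND6 (minus strand, written 5′ to 3′).
ND6, last 60 bases, chrM:13552-13611: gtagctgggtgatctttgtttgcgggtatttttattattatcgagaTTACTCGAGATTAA
Values of these pairs are therefore not independent. Of the 156 coding values in the table, 84.6% were not whole numbers, so fractions of reads had been assigned. Counting may or may not have used strand, and nuclear copies of mitochondrial sequence make all rows uncertain to an extent that was not tested.

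Library totals ran from 36191501 to 42569101 counts. Replicate 4 of every group stood apart: its 3 libraries held 588 to 740 CPM of Xist, which coats the silenced X chromosome in females, against at most 0.319 CPM in every library of replicates 1 to 3. Count differences between replicate libraries, as chi-square per degree of freedom, were 36.8 to 44.7 with replicate 4 and 1.66 to 18.4 among replicates 1 to 3. Where nothing ties a library to its own culture, p-values measure the spread between these libraries, which may be technical. Astrocyte markers were abundant, with a summed level of 8094 to 9141 CPM over 10 genes in control, 7227 to 8275 with thapsigargin and 8392 to 9234 in calcium-free medium. CPM denotes counts scaled to one common total by the normalised library size, and a share of counts cannot separate fewer mitochondrial transcripts per cell from fewer cells or from more RNA of other genes.

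Per length, COX1 had the highest level in control, 5315 ± 387 CPM per kb (SD, n = 4). COX1 specifies the catalytic subunit of complex IV, cytochrome c oxidase. ATP6 followed at 3929 ± 253, CYTB, the complex III subunit cytochrome b, at 3214 ± 266, COX3 at 3175 ± 323 and COX2 at 2683 ± 140 CPM per kb. ND1 was at 2355 ± 285 and ATP8 at 2277 ± 152 CPM per kb. The control libraries of COX1 and ATP6, and of ATP6 and CYTB, did not overlap. The ranges of each neighbouring pair in the order from CYTB to ATP8 did.

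The other complex I genes were lower per length. ND2 was at 1464 ± 139, ND5 at 1298 ± 244 and ND4 at 1292 ± 156 CPM per kb, with overlapping ranges. ND4L was at 556 ± 64.6 and ND3 at 418 ± 48.8 CPM per kb, and their ranges overlapped neither each other nor those of the genes beside them in the order. ND6, the 1 coding gene on the minus strand, was at 57.3 ± 31.7 CPM per kb, so COX1 was 92.8 times as high. Human ND6 messenger RNA is known to carry little or no tail, and tail length was not measured here. The ribosomal RNAs mt-Rnr1 and mt-Rnr2 were at 53.2 ± 8.11 and 51.6 ± 11.1 CPM per kb in these poly-A libraries, overlapping with ND6.

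**Figure D1:**
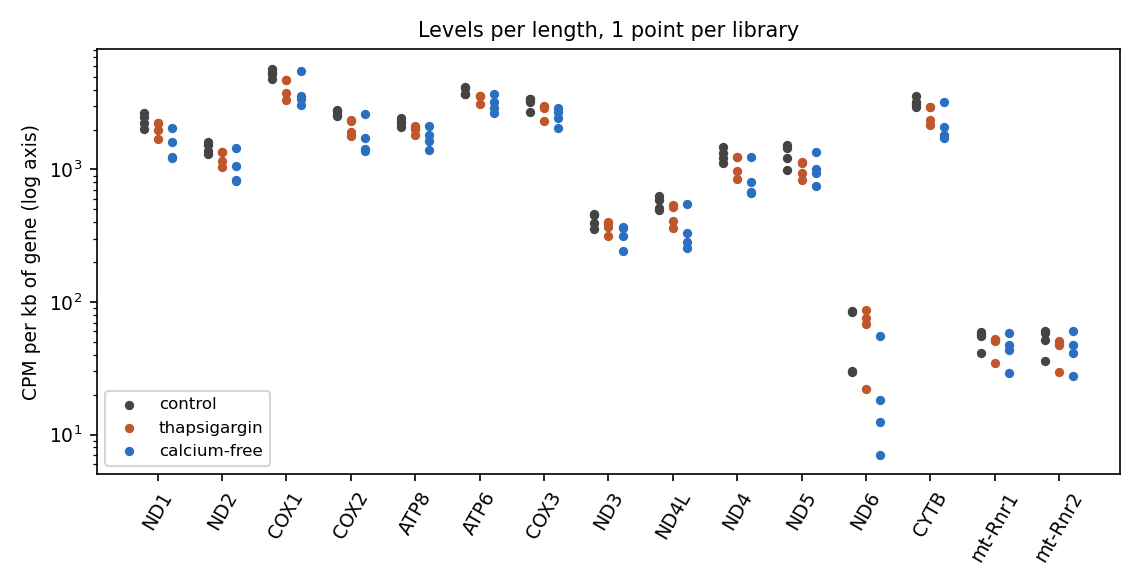
Level of each coding gene, in genome order, and of both ribosomal RNAs, as CPM per kb of gene on a log axis, with 1 point per library and colours for the 3 groups. COX1 lies highest in control at a mean of 5315 CPM per kb, and ND6 and the ribosomal RNAs lie lowest, with ND6 spread most widely.

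The 13 coding genes held 2.97%, 2.83%, 2.63% and 2.45% of all counts in control replicates 1 to 4. With thapsigargin the share was 2.22%, 2.599%, 2.62% and 1.94%, and in calcium-free medium 2.72%, 1.92%, 1.68% and 1.55%. Calcium-free replicate 1 lay within the control range, and the other 3 calcium-free libraries lay below every control library. Replicate 1 carries the same treatment label as the other 3, and that label could not be checked independently, so every calcium-free mean and call below depends on it. For 2 nuclear genes that were called higher with all 4 libraries, Fastkd5 and Pde12, this library lay with the other 3, above every control (9.15 against 6.51 to 7.42 CPM, and 28.8 against 23.5 to 25.3 CPM). Those calls came from a fit that held this library and favour genes in which the 4 agree, so they do not check its label. Group means (± SD, n = 4) were 2.72 ± 0.230% for control, 2.34 ± 0.328% for thapsigargin and 1.97 ± 0.522% for calcium-free libraries. Between libraries of the same replicate number, the share was below control in 4 of 4 pairs for each treatment. For replicates 1 to 3 such pairs rest on the label alone. The mean difference from control was -0.376 percentage points with thapsigargin and -0.753 in calcium-free medium, or -1.003 without calcium-free replicate 1.

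**Figure D2:**
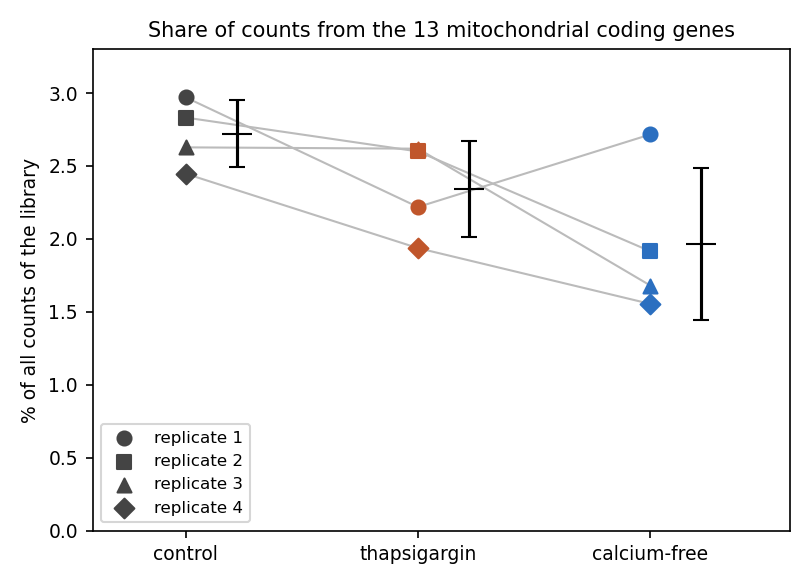
Percent of all counts from the 13 mitochondrial coding genes in each library, with symbols and grey lines for replicate numbers and bars for the mean and SD of each group (n = 4). Calcium-free replicate 1, at 2.72%, sits among the controls, while calcium-free replicates 2 to 4 sit between 1.55% and 1.92%.

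Calcium-free medium was compared with control to ask how mitochondrial transcripts stood after an hour without outside calcium. All 13 coding genes had a negative log2 fold change, with a median of -0.49, against -0.0076 over all 17077 genes tested. ND1, a membrane subunit of complex I, fell by 0.62 ± 0.16 (SE, log2) to 0.651 of control and was the 1 coding gene called (edgeR quasi-likelihood test, adjusted p = 0.0444). Of all genes tested, 1.55% were called lower and 3.78% higher in this comparison. With upper quartile normalisation these calls were 524 higher and 372 lower, against 646 and 265.

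ND1 stood at 2557, 2380, 2148 and 1932 CPM in control and at 1962, 1549, 1195 and 1166 CPM in calcium-free medium. Calcium-free replicate 1 again overlapped with the control range and the other 3 did not. The ND1 call was lost, with adjusted p up to 0.141, on leaving out any 1 of 9 libraries, namely control 1 to 3, thapsigargin 1 to 3 and calcium-free 2 to 4. Unadjusted p was under 0.05 for 11 of the 13 coding genes, all except ND5 and ND6. The share of all genes under that threshold was not counted. The coding genes varied together over the libraries, so these are not 11 separate results.

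The number of coding genes called depended on how the libraries were combined. A fit that blocks on replicate number called 5 lower (7.01% of all genes): COX3 at -0.34 (adjusted p = 2.46e-06), ATP6 at -0.33 (0.00124), ND3 at -0.38 (0.00141), ND1 at -0.64 (0.0188) and ATP8 at -0.39 (0.0271). DESeq2 called 8 lower (2.51% of all genes). Without calcium-free replicate 1, edgeR called 10 lower (3.48% of all genes), all but COX3, ND3 and ND5, and the median was -0.70. Without thapsigargin replicate 4, a library of neither group compared here, 2 were called lower (306 of 17198 genes). In no coding gene did all 4 calcium-free libraries lie below all 4 controls, a pattern that 4.44% of all genes had. In 12 of the 13, the exception being ND6, the calcium-free library lay below the control of the same number in 4 of 4 pairs. How many of all genes had this pattern was not counted, so whether 12 is many cannot be told. The coding genes also varied together, and pairs of replicates 1 to 3 rest on the label alone.

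The size of the difference varied along the genome. ATP8, ATP6, COX3 and ND3 lie in that order between chrM:7766 and chrM:9806, with TrnG between COX3 and ND3, and their log2 fold changes were -0.38 ± 0.11, -0.33 ± 0.09, -0.33 ± 0.11 and -0.37 ± 0.13 (SE). COX3 specifies a core subunit of complex IV and ND3 a small subunit of complex I. ND5 was at -0.35 ± 0.18. The other plus-strand genes were at -0.45 (COX1) to -0.64 (ND4L), with COX2 at -0.59, CYTB at -0.53, ND2 at -0.49 and ND4 at -0.61. This grouping of 4 neighbours was chosen after the values were seen, and the difference between them and the rest was not tested.

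In calcium-free replicates 2 and 4 the same 4 genes lay nearest to the control mean, and in replicate 3 ND5 came before ATP8. In calcium-free replicate 3, COX3 was -0.36 and ATP6 -0.42 from the control mean on the log2 scale, while ND4L was -0.95 and ND4 -0.92. In calcium-free replicate 1 the 13 genes lay between -0.19 (ND1) and 0.15 (ND6). Within groups, the SD of log2 CPM was 0.14 for ATP6, 0.17 for ATP8, 0.18 for COX3 and 0.21 for ND3, and 0.25 to 0.34 for the other 8 plus-strand genes. Together the 4 neighbours made up 20.2% to 21.2% of the coding counts in control, 19.7% in calcium-free replicate 1 and 24.01% to 25.02% in calcium-free replicates 2 to 4. With thapsigargin they made up 24.8% in replicate 1, 21.02% and 21.1% in replicates 2 and 3, and 23.5% in replicate 4. The raised share thus also occurred in the 2 thapsigargin libraries with the lowest coding share. These SDs and shares come from the same values as the fold changes, so they are not separate support for the grouping.

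**Figure D3:**
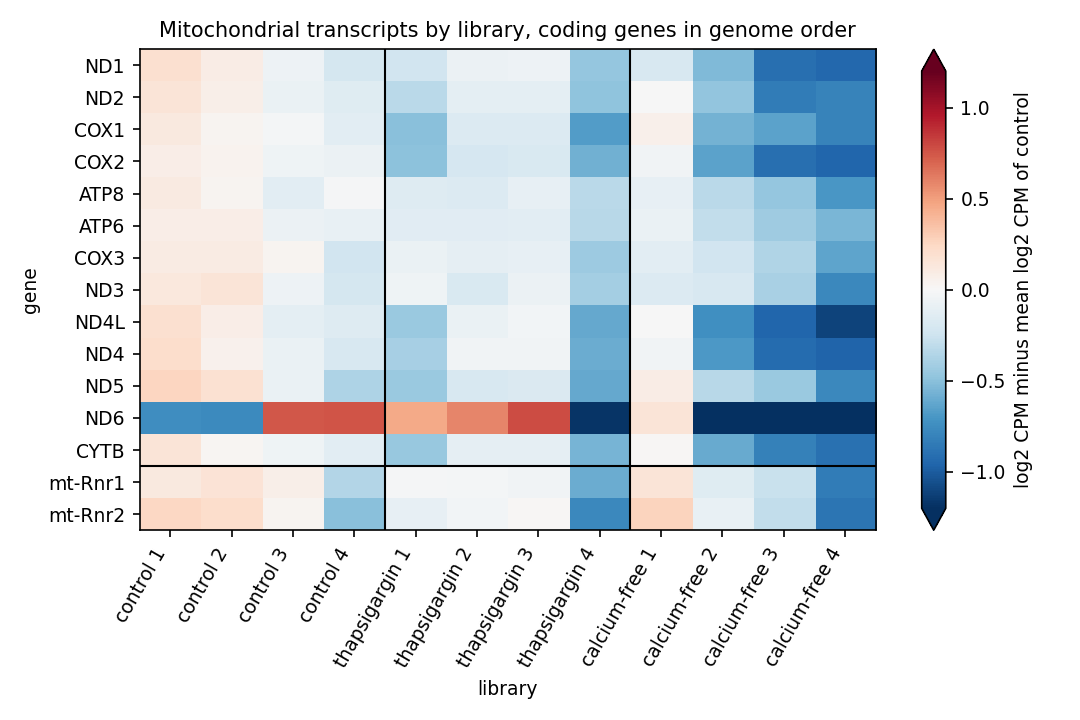
Log2 CPM of each coding gene, in genome order, and of both ribosomal RNAs in every library, relative to the mean of the 4 controls; values beyond the colour scale take its end colours. Calcium-free replicates 2 to 4 and thapsigargin replicate 4 are low in all 13 coding genes, and ATP8 to ND3 are paler than their neighbours in calcium-free replicates 2 to 4.

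Deviations of log2 CPM from the group means also showed which coding genes varied together over the 12 libraries, given as a description. Pearson's r was 0.995 for ND4L and CYTB, 0.992 for ND4 and CYTB and 0.958 for COX3 and ND3. It was 0.71 for COX3 and COX2 and 0.66 for ND3 and COX2. These points share library, depth and normalisation, and ND4L and ND4 share reads.

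ND6 differed from the plus-strand genes in its spread. It held 15.6, 15.4, 43.8 and 44.1 CPM in control, 35.7, 39.2, 45.01 and 11.6 CPM with thapsigargin, and 29.0, 9.42, 6.51 and 3.67 CPM in calcium-free medium. Controls thus fell into a low and a high pair, and all 3 groups overlapped. The within-group SD of log2 CPM was 1.03. The log2 fold change in calcium-free medium was -1.30 ± 0.62 (SE, adjusted p = 0.305), and it was called only without calcium-free replicate 1 (-2.19, adjusted p = 0.0379). Thapsigargin against calcium-free medium gave 1.44 ± 0.62 (adjusted p = 0.107), or 2.33 without calcium-free replicate 1 (adjusted p = 0.0105). The counts behind ND6 ran from 152.5 to 1951.5 per library.

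Thapsigargin was compared with control to ask how mitochondrial transcripts stood with the endoplasmic reticulum pump blocked. No coding gene was called in either direction by edgeR, and none reached an unadjusted p under 0.05, in a comparison in which 16.4% of all genes were called higher and 14.8% lower. DESeq2 also called none. Log2 fold changes were negative for 12 of the 13, with a median of -0.26 against -0.047 over all genes, and adjusted p ran from 0.136 to 0.888. The largest were ND5 at -0.37 ± 0.18, COX1 at -0.36 ± 0.17 and COX2, which carries the copper centre that takes electrons from cytochrome c, at -0.35 ± 0.17 (SE).

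COX1 held 8913, 8387, 8059 and 7485 CPM in control against 5804, 7305, 7324 and 5137 CPM with thapsigargin. Every thapsigargin library of COX1 lay below every control, as it did for COX2 and ATP6, 3 of 13 coding genes, where 15.1% of all genes had this pattern. COX2 held 1938, 1893, 1768 and 1741 CPM in control against 1303, 1597, 1610 and 1233 CPM with thapsigargin. Thapsigargin replicates 1 and 4 were the low ones in both genes. With the replicate block, 3 coding genes were lower (28.2% of all genes): COX3 at -0.18 (adjusted p = 1.13e-04), ATP6 at -0.18 (0.0106) and ND3 at -0.18 (0.0230). Without calcium-free replicate 1, a library of neither group compared here, COX2 and COX1 were called lower (adjusted p = 0.0168 and 0.0286, with 14.5% of all genes called lower). In 8 of the 13 the thapsigargin library lay below the control of the same number in 4 of 4 pairs. How many of all genes had this pattern was not counted, so whether 8 is many cannot be told. The summed level of 10 neuronal markers was also below every control with thapsigargin, at 352 to 391 against 398 to 430 CPM. Of the 7 tested neuronal genes 1 was called higher and 1 lower (16.4% and 14.8% of all genes). Over all libraries Map2 held 200 to 240 CPM and Stmn2 110 to 160 CPM. Rbfox3, Snap25 and Slc17a7 held at most 0.653 CPM. Sums for microglia (72.1 to 108 against 89.2 to 145 CPM), the oligodendrocyte lineage (1641 to 1990 against 1786 to 1910 CPM) and vascular cells and fibroblasts (2129 to 2909 against 2492 to 3443 CPM) overlapped with control. The part of cell makeup in the thapsigargin values was not tested.

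Thapsigargin acts on the inner calcium store and EGTA on calcium outside the cell, and the treated groups were also compared with each other. No coding gene was called (edgeR), where 14.6% of all genes were called higher with thapsigargin and 13.2% lower. The median over the coding genes was 0.23. Of these genes 2 had an unadjusted p under 0.05, a share that was not counted over all genes. ND1, at 1910, 2132, 2149 and 1622 CPM with thapsigargin, had 0.41 ± 0.16 (SE, adjusted p = 0.0723) and overlapped with the calcium-free range through calcium-free replicate 1. With the block, 4 were higher with thapsigargin (22.4% of all genes): COX3 at 0.15 (adjusted p = 6.24e-04), ND3 at 0.20 (0.0155), ND1 at 0.44 (0.0298) and ATP6 at 0.15 (0.0316). DESeq2 called 1, ND1, where 2750 of 17077 genes were called higher. Without calcium-free replicate 1, 9 were called higher (14.8% of all genes). Without thapsigargin replicate 4, 1 was (2190 of 17198 genes).

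**Figure D4:**
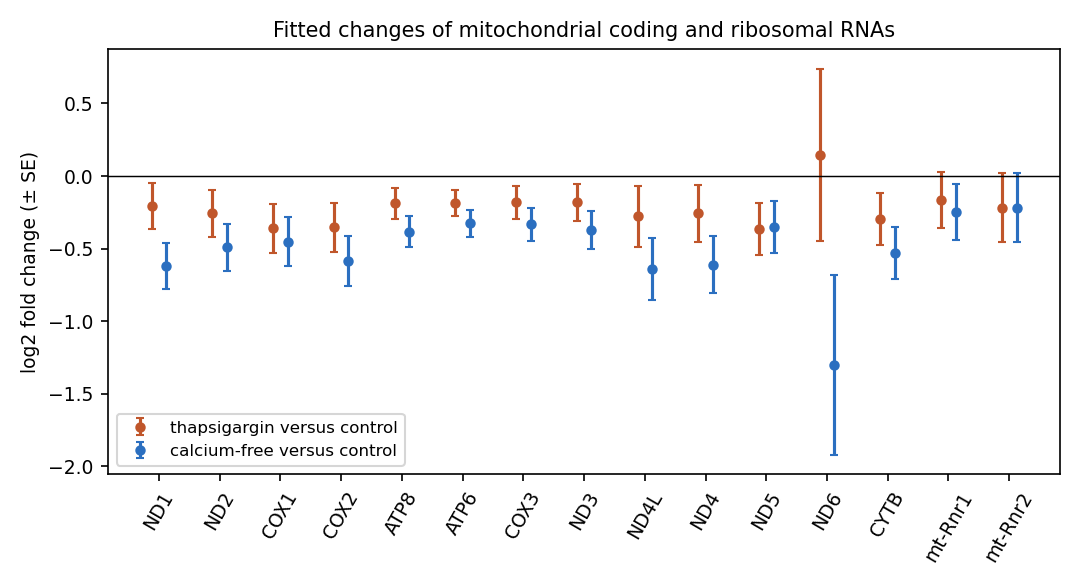
Fitted log2 fold changes against control with standard errors (n = 4 per group) for the 13 coding genes in genome order and both ribosomal RNAs. Calcium-free values are negative throughout and run from -0.33 to -1.30 for coding genes; thapsigargin values are negative except for ND6, whose error bars are the widest.

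As a share of the coding counts, ND1 was the 1 gene of 13 whose thapsigargin libraries did not overlap with control. It made up 8.42%, 8.27%, 8.05% and 7.84% in control and 8.90%, 8.51%, 8.52% and 8.62% with thapsigargin. In calcium-free medium it made up 7.196%, 7.90%, 6.84% and 7.37%, below every thapsigargin library. ND5 made up 7.997% to 8.23% with thapsigargin and 8.61% to 9.84% in calcium-free medium, without overlap. For calcium-free medium against control, no gene's share of the coding counts was without overlap. COX1 made up the most in each group, on average 29.8%, 28.1% and 29.8% in control, thapsigargin and calcium-free libraries.

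The ribosomal RNAs mt-Rnr1 and mt-Rnr2 form the small and large subunit cores of the mitochondrial ribosome. mt-Rnr1 (chrM:70-1024) held 54.4, 56.5, 52.8 and 39.4 CPM in control, 49.9, 49.4, 48.9 and 33.3 CPM with thapsigargin, and 55.9, 45.4, 41.8 and 28.1 CPM in calcium-free medium. Replicate 4 was lowest in every group. Log2 fold changes were -0.16 ± 0.19 with thapsigargin and -0.25 ± 0.19 in calcium-free medium (SE, adjusted p = 0.584 and 0.623), the second called with the block (-0.27, adjusted p = 0.0294). mt-Rnr2 (chrM:1094-2675) had -0.22 ± 0.24 in each (adjusted p = 0.548 and 0.775).

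Among the transfer RNA genes, 4 are shown because their values differed most between groups or settings; all lie on the plus strand.
TrnL1, chrM:2676-2750: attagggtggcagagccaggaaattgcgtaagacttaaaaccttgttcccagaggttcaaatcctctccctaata
TrnM, chrM:3845-3913: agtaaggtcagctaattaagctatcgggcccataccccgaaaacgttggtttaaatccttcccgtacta
TrnW, chrM:4950-5016: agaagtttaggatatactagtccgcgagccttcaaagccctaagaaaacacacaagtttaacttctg
TrnT, chrM:15289-15355: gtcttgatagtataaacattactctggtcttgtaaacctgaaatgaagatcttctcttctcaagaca
TrnL1, a leucine transfer RNA, abuts mt-Rnr2 on one side and ND1 on the other with no base between them. TrnM (methionine) ends where ND2 begins, TrnW (tryptophan) overlaps the last 2 bases of ND2, and TrnT (threonine) begins where CYTB ends.

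TrnL1 was the 1 member called with thapsigargin, of the 23 tested, and it was lower, as were 14.8% of all genes. It held 3.32, 3.31, 2.63 and 2.34 CPM in control (96.5 to 134 counts) and 1.89, 2.07, 2.15 and 1.64 CPM with thapsigargin. These values did not overlap, a pattern that 15.1% of all genes had. It fell by 0.58 ± 0.18 on the log2 scale, to 0.671 of control (edgeR, adjusted p = 0.0258). The call was lost when control 1, control 2, thapsigargin 1 or thapsigargin 4 was left out (adjusted p 0.0578 to 0.0796), and without the filter on low counts (0.0519). In calcium-free medium TrnL1 had -0.38 ± 0.18 (adjusted p = 0.295), called with the block (0.0332).

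TrnM had the highest log2 fold change against control of the 23 tested members. It held 0.56, 0.58, 0.48 and 0.44 CPM in control and 1.76, 0.97, 0.89 and 0.52 CPM in calcium-free medium, from 17.5 to 63.5 counts per library. Its log2 fold change was 1.02 ± 0.33 (SE, adjusted p = 0.104), called with the block (0.00865) and without calcium-free replicate 4 (0.0284). Calcium-free replicate 1 was the highest and the groups overlapped.

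TrnW held 2.53, 2.07, 2.57 and 1.57 CPM in control, 1.75, 1.56, 1.64 and 1.13 CPM with thapsigargin, and 1.80, 1.25, 1.23 and 1.27 CPM in calcium-free medium. The low control replicate 4 overlapped with both treatments. Log2 fold changes were -0.52 ± 0.19 (adjusted p = 0.0606) and -0.65 ± 0.20 (0.0805), both called with the block (0.00232 and 0.00237) and without control replicate 4 (0.0155 and 0.0313). TrnT had -0.76 ± 0.34 with thapsigargin (adjusted p = 0.118) and -1.27 ± 0.37 in calcium-free medium (0.0749; 0.0237 with the block), from 1.5 to 20.5 counts per library. TrnI, TrnD, TrnG and TrnL2, for isoleucine, aspartate, glycine and leucine, had adjusted p of 0.214 to 0.924 against control in both treatments. TrnD was called lower without calcium-free replicate 1 (-0.97, adjusted p = 0.0125).

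All 8 tested transfer RNAs lie on the plus strand. The 8 on the minus strand were among the 14 not tested, with at most 15 counts in a library. Summed over all 22, transfer RNA genes held 249 to 454 counts per library, so their values carry more counting error than those of coding genes. Precision given here covers counting error and the spread between libraries only, since no molecular identifiers are described.

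The nuclear genes that transcribe and maintain the mitochondrial genome were described from a list of 17. With thapsigargin 8 were higher and 0 lower, with a median of 0.18, where 16.4% of all genes were higher and 14.8% lower. In calcium-free medium none was called (3.78% and 1.55% of all genes), and with the block 1 was higher and 2 lower (10.4% and 7.01%). Polrmt, the mitochondrial RNA polymerase, was at -0.02 ± 0.07 (SE, adjusted p = 0.895), from 26.1 ± 0.675 to 25.8 ± 1.18 CPM (SD, n = 4). Tfam, which packages the genome and opens its promoters, rose by 0.18 ± 0.06 (adjusted p = 0.0278), and Tefm, an elongation factor, by 0.32 ± 0.07 (0.00394). Mterf1a and Mterf3, of the termination factor family, rose by 0.66 ± 0.13 and 0.30 ± 0.07 (adjusted p = 0.00228 and 0.00392). The promoter factor Tfb2m was at -0.06 ± 0.05 (adjusted p = 0.395). The 8 became 4 without control 1, control 3 or thapsigargin 4, and 5 without control 2.

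Of 34 genes for processing, tailing and decay of mitochondrial RNA, 16 were higher and 5 lower with thapsigargin (16.4% and 14.8% of all genes). Trmt10c, a subunit of the enzyme that cuts the 5′ ends of mitochondrial transfer RNAs, rose by 0.94 ± 0.08 to 1.92 times control (adjusted p = 3.72e-06). Fastkd5, needed to mature messages that have no transfer RNA at their ends, rose by 0.91 ± 0.08 (adjusted p = 4.93e-06), and Pde12, which trims tails, by 0.48 ± 0.04 (4.47e-06). The poly-A polymerase Mtpap rose by 0.22 ± 0.05 (adjusted p = 0.00598). The degradosome pair Supv3l1 and Pnpt1 rose by 0.19 ± 0.05 and 0.14 ± 0.04 (adjusted p = 0.0139 and 0.0313). The message-binding partners Lrpprc and Slirp fell by 0.16 ± 0.04 and 0.14 ± 0.04 (adjusted p = 0.00942 and 0.0255). Elac2, which cuts 3′ ends of transfer RNAs, was at 0.06 ± 0.06 (adjusted p = 0.456). The 5 lower became 2 without control 2, and 3 without control 3, thapsigargin 1 or thapsigargin 2.

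In calcium-free medium 5 of these 34 were higher and 1 lower (3.78% and 1.55% of all genes), with a median of 0.0094. Fastkd5 rose by 0.39 ± 0.08 (adjusted p = 0.0157), Trmt10c by 0.32 ± 0.08 (0.0368), Pde12 by 0.25 ± 0.04 (0.00451) and Pnpt1 by 0.23 ± 0.04 (0.0108). Mtpap was at -0.06 ± 0.05 and Supv3l1 at -0.09 ± 0.05 (adjusted p = 0.68 and 0.400). Dropping any 1 control, or calcium-free 2 or 3, took the 5 to 2 or 3. The count was 9 without replicate 4 in all groups, where 1782 of 17004 genes were called higher. The 1 lower became 4 with the block (7.01% of all genes).

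Of 16 regulators of mitochondrial biogenesis, 6 were higher and 1 lower with thapsigargin (16.4% and 14.8% of all genes), and 1 and 1 in calcium-free medium (3.78% and 1.55%). With the block 2 were higher in calcium-free medium (10.4% of all genes). Sirt1, a deacetylase, rose by 0.76 ± 0.09 with thapsigargin (adjusted p = 4.77e-05), Prkaa2, a catalytic subunit of AMPK, by 0.65 ± 0.07 (3.32e-05), Pprc1 by 0.44 ± 0.09 (0.00273) and its relative, the coactivator Ppargc1a, by 0.36 ± 0.04 (3.59e-05). Prkaa2 also rose in calcium-free medium, by 0.44 ± 0.07 (adjusted p = 0.00516). Nrf1, a transcription factor for nuclear mitochondrial genes, was at 0.18 ± 0.09 with thapsigargin (adjusted p = 0.175), called with the block (8.76e-04). Without replicate 4 in all groups the 6 became 10, where 4147 of 17004 genes were called higher.

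Of 15 mitochondrial translation factors, 4 were higher and 3 lower with thapsigargin (16.4% and 14.8% of all genes), and 7 lower with the block (28.2%). Mtif2, the initiation factor, rose by 0.31 ± 0.04 (adjusted p = 9.86e-05), the ribosome-bound Ptcd3 by 0.26 ± 0.05 (9.72e-04) and the release factor Mtrf1l by 0.31 ± 0.08 (0.00835). Of 16 tested genes of the mitochondrial stress response, 1 was higher and 6 lower, beside the same shares of all genes. The matrix chaperones Trap1, Hspd1 and Hspa9 fell by 0.23 ± 0.03, 0.19 ± 0.03 and 0.23 ± 0.04 (adjusted p = 2.28e-04, 0.00138 and 0.00180). In calcium-free medium none of either list was called (3.78% of all genes higher and 1.55% lower), and with the block 1 of each was higher (10.4% of all genes).

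The nuclear-encoded partners of the same respiratory complexes were compared from a list of 72. With thapsigargin 66 were lower and 0 higher (14.8% and 16.4% of all genes), with a median of -0.23. In calcium-free medium 1 was lower and 0 higher (1.55% and 3.78%), with a median of -0.044. Cox6b1, a complex IV subunit, fell from 233 ± 1.15 to 166 ± 5.58 CPM (SD, n = 4; -0.49 ± 0.03, adjusted p = 7.82e-07). Uqcrh, of complex III, fell by 0.48 ± 0.04 (adjusted p = 1.95e-06) and Cox7a2, of complex IV, by 0.43 ± 0.03 (1.60e-06). In calcium-free medium the same 3 were at -0.08 ± 0.03, -0.06 ± 0.04 and -0.12 ± 0.03 (adjusted p = 0.226, 0.402 and 0.0524). Of these 3, Cox7a2 was called lower with the block (0.00762). Median log2 fold changes of the 13 mitochondrial coding genes and the 72 nuclear partners thus stood at -0.26 and -0.23 with thapsigargin and at -0.49 and -0.044 in calcium-free medium. The difference between the 2 sets was not tested. The 1 lower in calcium-free medium became 0 to 8 under other settings. It was 7 with the block (7.01% of all genes) and 8 without replicate 4 in all groups (877 of 17004 genes).

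Malat1 and Neat1, noncoding RNAs that stay in the nucleus, and a sum over 10 such RNAs also stood higher in replicate 1 than in replicates 2 to 4 of calcium-free medium. Pvt1, also in the sum, did not follow it. Pvt1 held 17.7, 17.0, 14.6 and 16.7 CPM in calcium-free medium against 15.4 to 18.7 CPM in control. The sum was 919, 864, 914 and 953 CPM in control, as a share of raw totals, and 788, 1034, 1043 and 911 CPM with thapsigargin. In calcium-free medium it was 891, 454, 365 and 438 CPM, so replicate 1 was at the control level and replicates 2 to 4 were below every control. Malat1 held 406, 376, 413 and 448 CPM in control and 433, 218, 181 and 175 CPM in calcium-free medium (log2 fold change -0.71 ± 0.24, adjusted p = 0.124). Neat1, the scaffold of paraspeckles, held 324, 290, 306 and 270 CPM in control and 240, 89.9, 57.8 and 95.8 CPM in calcium-free medium, and fell by 1.30 ± 0.34 (adjusted p = 0.0482). With the block the Neat1 call was lost (adjusted p = 0.0730). In calcium-free replicate 1 Neat1 was below every control, while Malat1 and the sum were not. Neat1 was the 1 of 10 called lower (1.55% of all genes) and the median was -0.80. The count called lower was 5 without calcium-free replicate 1 (3.48% of all genes), 1 without calcium-free replicate 4, and 0 without any other 1 library. With the block 1 of the 10 was higher and 1 lower (10.4% and 7.01% of all genes).

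**Figure D5:**
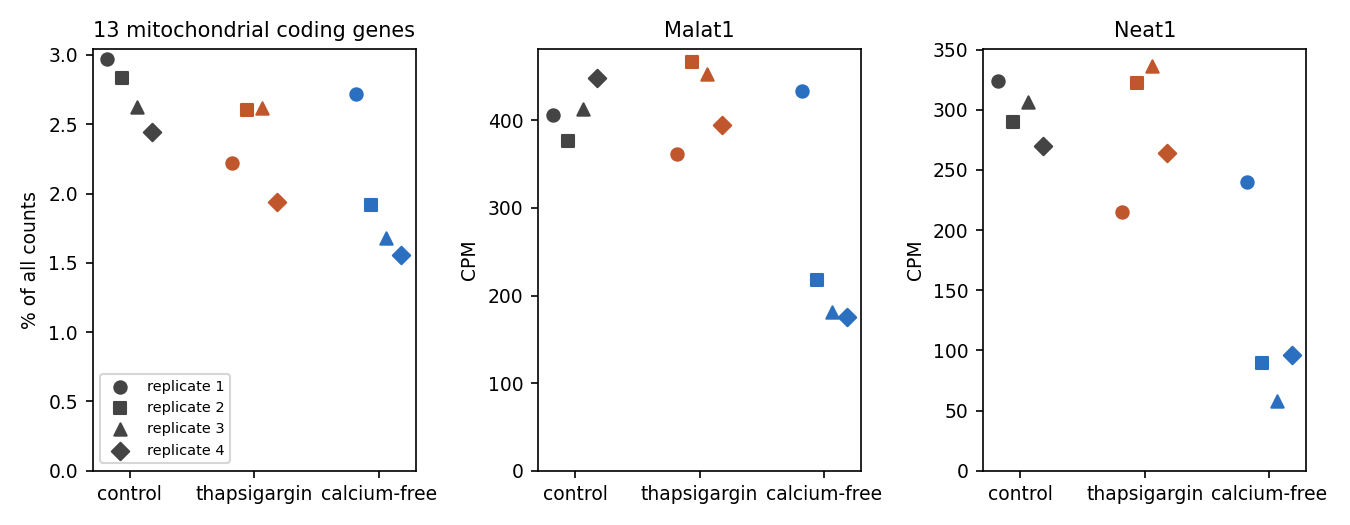
Share of counts from the 13 mitochondrial coding genes and CPM of the nuclear noncoding RNAs Malat1 and Neat1 in each library, with a symbol for each replicate number. In all 3 panels calcium-free replicates 2 to 4 lie below every control, and calcium-free replicate 1 lies apart from them.

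In thapsigargin replicate 4 the coding share was 1.94%, and the sum of nuclear RNAs was 911 CPM, within the control range of that sum. In thapsigargin replicate 1 the coding share was 2.22%, and the sum was 788 CPM, below every control. Pvt1, another nuclear RNA of that list, held 16.7 ± 1.46 CPM in control and 16.5 ± 1.34 CPM in calcium-free medium (SD, n = 4) and rose to 28.1 ± 4.33 CPM with thapsigargin (0.75 ± 0.10, adjusted p = 1.64e-04). Summed markers of other cell types overlapped between calcium-free medium and control: 85.2 to 124 against 89.2 to 145 CPM for 10 microglial genes, 418 to 456 against 398 to 430 CPM for 10 neuronal genes, 1792 to 2091 against 1786 to 1910 CPM for 10 genes of the oligodendrocyte lineage, and 2766 to 3605 against 2492 to 3443 CPM for 10 vascular and fibroblast genes. Of the neuronal genes 1 was at 0 in every library. The sum over 61 genes of replication-coupled histones, whose messages mostly lack a poly-A tail, was below every control in all 4 calcium-free libraries, at 119, 105, 94.8 and 137 CPM against 145 to 197 CPM. With thapsigargin it was 155 to 213 CPM. The part of nuclear RNA, of untailed RNA, of cell makeup and of RNA quality in the low mitochondrial values was not tested.

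The nuclear genes whose log2 CPM followed the summed coding genes most closely over the 12 libraries were Gm20515 (Pearson's r 0.967, Spearman's rho 0.958), the kinesin Kif5a (0.963 and 0.951), the potassium channel gene Kcnt1 (0.961 and 0.972), the glutamate receptor gene Gria2 (0.959 and 0.902) and Nrbp2 (0.958 and 0.874). These are descriptions over libraries that share groups, depth and normalisation.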

How the data were processed

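Per the labels' protocols, RNA with an integrity number above 9.3 was made into stranded libraries from 500 ng with oligo-dT beads and 14 cycles of PCR. Reads were processed with STAR 2.7.2b, featureCounts 1.6.4 (Subread), cutadapt 1.17 and bcl2fastq 2.20.0.422 against GRCm39, per the submitters' processing notes. Options such as the strand setting: not given in the sources used here. Expected counts per gene, whole or fractional, are what the authors deposited, and they were rounded for count models.

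Groups and replicate numbers came from the titles. Genes (17077 after edgeR's default filter, minimum count 10) were tested with edgeR 4.0.16 in R 4.3.3 (quasi-likelihood, robust, TMM, 1 mean per group over 12 libraries), adjusted by Benjamini and Hochberg over all genes and called at 0.05. The test was checked on simulated data with 50 changed genes at each of 4 sizes. It called 18% of 1.2-fold, 72% of 1.5-fold, 88% of 2-fold and 98% of 4-fold changes, and 3 unchanged genes. Small changes were thus mostly missed. Levels are CPM with normalised library sizes and, per length, CPM per kb; shares use raw totals. The members and gene lists were chosen with earlier results of these data known. Named genes were all coding and ribosomal RNAs, tested transfer RNAs, the 3 genes of each list with the smallest p over the 3 groups, 13 fixed genes of mitochondrial RNA metabolism and biogenesis, and, by correlation only, the 5 nuclear genes most like the summed coding genes.

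The groups share replicate numbers. Deviations from group means correlated with r from 0.159 to 0.836 between libraries of the same number, and from -0.579 to 0.412 otherwise. Numbers were taken as pairs because every matched r was above 0.1. With replicate 4 set aside, matched libraries had r of 0.159 to 0.392, and unmatched ones had 0.238 to 0.412. That rule thus cannot tell whether replicates 1 to 3 are pairs, and their pairing rests on the label alone. Only replicate 4 stood out, with r of 0.814 to 0.836 among its own libraries and negative r with libraries of other numbers. A block by number, which for replicates 1 to 3 rests on that label, was an alternative. Others were DESeq2 1.42.0, upper quartile factors, factors from nuclear genes only, limma-voom (limma 3.58.1) on unrounded values, no filter, only the groups compared, replicate 4 left out, and each library left out.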

Additional observations from a re-analysis of the deposited data

Results flagged for a closer look

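In groups of 4 libraries, a value was singled out where its gap to the nearest other, divided by the group's range, exceeded Dixon's 95% critical value. Of 69 groups (23 tested genes in 3 groups) 5 held such a value. Chance gives about 1 in 20 for independent genes and replicates of like spread. Here the genes varied together and replicate 4 stood apart, so that rate is no yardstick. Thapsigargin replicate 4 was low for ATP6 at 2120 CPM against 2424 to 2440, for COX3 at 1828 CPM against 2294 to 2348, and for mt-Rnr1 at 33.3 CPM against 48.9 to 49.9. For these genes replicate 4 was also the lowest library in control and in calcium-free medium. COX3 in replicate 4 was at 2119 CPM against 2537 to 2654 in control, and at 1601 CPM against 1931 to 2269 in calcium-free medium. Calcium-free replicate 1 was high for TrnW at 1.80 CPM against 1.23 to 1.27 and for TrnD at 1.04 CPM against 0.449 to 0.527.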

How the results depend on the processing

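Over 20 alternatives the median log2 fold change of the 13 coding genes kept its sign in each comparison: -0.70 to -0.39 for calcium-free medium against control, -0.30 to -0.16 for thapsigargin against control and 0.14 to 0.44 for thapsigargin against calcium-free medium. Counts of calls did not hold, and the cause was not tested. Coding genes lower in calcium-free medium (1) were 8 with DESeq2 and 5 with the replicate block (428 and 1197 of 17077 genes). They were 2 without replicate 4 (877 of 17004 genes), 0 with no filter and 0 with only the 2 groups compared. On leaving out 1 library they were 0 to 10, with 10 without calcium-free 1 (600 of 17238 genes). Coding genes lower with thapsigargin (0) were 1 with only the 2 groups (2263 of 16871 genes) and 3 with the replicate block (4817 of 17077). On leaving out 1 library they were 0 to 2, with 2 without calcium-free 1 (2506 of 17238 genes). Coding genes higher with thapsigargin than in calcium-free medium (0) were 1 with DESeq2 and 4 with the replicate block (2750 and 3833 of 17077 genes). They were 1 without replicate 4 (3684 of 17004 genes). On leaving out 1 library they were 0 to 9, with 9 without calcium-free 1 (2553 of 17238 genes). With only protein-coding rows as denominator, mean shares were 2.75%, 2.37% and 1.99% for control, thapsigargin and calcium-free libraries. Leaving out 1 of 4 libraries cannot shift a mean by its group's SD, so setting such shifts against the SD does not check the shares. Without calcium-free replicate 1 the mean difference from control went from -0.753 to -1.003 percentage points. Counts of make-up percents without overlap stayed the same with ATP8 and ATP6 summed, and ND4L and ND4 summed. Over all genes, calls in calcium-free medium (646 higher, 265 lower) ran from 296 to 1782 and from 76 to 1197, and with thapsigargin (2800 and 2531) from 2361 to 4147 and from 1456 to 4817.

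Of 3359 fold changes of 56 named genes (members and list genes) under alternatives, 113 lost and 89 gained a call, and 61 changed sign, none of them called. Against calcium-free medium with thapsigargin, mt-Rnr2 turned to 0.011 with DESeq2, 0.013 with nuclear factors, 0.028 with limma-voom, 0.035 with no filter, 0.020 with 2 groups, 0.019 with the block and 0.014 without replicate 4, and ranged from -0.16 to 0.19 on leaving out 1 library. ND5 turned to 0.0013 with nuclear factors, 0.0091 with limma-voom, 0.022 with no filter, 0.0058 with 2 groups and 0.014 with the block, and ranged from -0.12 to 0.16. TrnL2 was -0.071 without replicate 4 and ranged from -0.20 to 0.29, mt-Rnr1 from -0.061 to 0.24, Elac2 from -0.0066 to 0.086 and Polrmt from -0.092 to 0.056, with 0.048 without replicate 4. Against control with thapsigargin, Polrmt was 0.018 with no filter and 0.0016 without replicate 4, from -0.049 to -0.00077. ND6 ranged from -0.069 to 0.43, TrnG from -0.26 to 0.040, Malat1 from -0.028 to 0.093 and Neat1 from -0.15 to 0.049. Against control in calcium-free medium, upper quartile factors gave Polrmt -0.0021, Tfb2m -0.022 and Elac2 -0.0079, and nuclear factors gave Tfb2m -4.0e-04. Without replicate 4, Mterf1a was 0.062, Mterf3 0.025, Pvt1 0.041 and Polrmt -0.047. On leaving out 1 library, TrnI ranged from -0.060 to 0.38, Polrmt from -0.065 to 0.075, Tfb2m from -0.010 to 0.025, Elac2 from -0.016 to 0.055, Mterf1a from -0.20 to 0.018, Mterf3 from -0.061 to 0.026, Pvt1 from -0.054 to 0.044, Nrf1 from -0.035 to 0.11 and Hspa9 from -0.040 to 0.014.

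With thapsigargin, over all alternatives, counts for transcription and maintenance ran from 4 to 10 higher and 0 to 1 lower, RNA processing 14 to 19 and 1 to 6, translation 3 to 5 and 1 to 7, biogenesis 5 to 10 and 0 to 2, nuclear respiratory subunits 0 and 59 to 70, and nuclear RNAs 1 and 0 to 1. In calcium-free medium they ran 0 to 1 and 0 to 2, 2 to 9 and 0 to 4, 0 to 1 and 0, 1 to 2 and 0 to 1, 0 and 0 to 8, and 0 to 1 and 0 to 5. Stress response ran 1 and 5 to 8 with thapsigargin, and 0 to 2 and 0 to 1 in calcium-free medium. Depth was low for the transfer RNAs, with 249 to 454 counts per library over all 22.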
